A study of Mus musculus with 6 samples.

Results

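NF-kB is a family of transcription factors that IkB proteins hold in the cytoplasm until a receptor for a cytokine or a bacterial product signals through adaptors and kinases. Freed dimers then switch on genes for cytokines, acute-phase and complement proteins, adhesion molecules and enzymes that make nitric oxide and prostaglandins, together with inhibitors that end the response. Glucocorticoids such as dexamethasone are known for holding many of these genes down, and in bone the same signals are known to act on both bone-forming and bone-resorbing cells. The genes described here are 10 known NF-kB targets, Nos2, Lcn2, Il33, Saa3, C3, Il6, Nfkbiz, Nfkbia, Vcam1 and Ptgs2, of the 21686 genes in the count table. Nos2, Lcn2 and Il33 were chosen by their large fall with EPC-EVs in these libraries, and the set was named around them with earlier results of these data known, so that contrast is a description for all 10.

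The cells were MC3T3-E1 Subclone 14, a clonal mouse osteoblast precursor line, so the groups differ by treatment of cultures of a single clone. Control cultures received 100 µL of PBS, dexamethasone cultures 10 µM dexamethasone, and dexamethasone + EPC-EVs cultures 10 µM dexamethasone with 100 µg of EPC-EVs, the extracellular vesicles shed by endothelial progenitor cells grown from mouse bone marrow. Each treatment lasted 72 hours, and each group gave 2 RNA-seq libraries. All EPC-EVs cultures also received dexamethasone, so vesicles without the steroid were not measured.

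Total gene counts were between 5146760 and 6583735 in the control and dexamethasone libraries and were 12864009 and 13182014 in the EPC-EVs libraries. In the EPC-EVs libraries 3 counts equal 0.238 and 0.235 CPM. CPM is a count scaled to the total of its library multiplied by the TMM factor, a normalization factor of that library. Mitochondrially encoded genes took 5.55% to 8.62% of the counts in the control and dexamethasone libraries and 0.465% and 0.727% in the EPC-EVs libraries. The part of depth in the results was not tested. The labels do not say whether the libraries of different groups were prepared together, so a part of preparation cannot be told apart from treatment. The osteoblast line was recognised by Runx2, Col1a1, Col1a2, Spp1 and Sparc, and the summed level of the 9 osteoblast markers was 15824 to 17454 CPM in the control and dexamethasone libraries and 29228 and 23387 CPM with EPC-EVs, while the later markers Alpl, Bglap and Ibsp lay between 0 and 6.57 CPM. The markers within that sum split. With EPC-EVs against dexamethasone, Col1a2 was higher (log2 fold change 1.89) and Spp1 lower (-1.06). Of 7 markers tested there, 3 were higher and 1 lower at an adjusted p under 0.05 in edgeR, where 20.9% of all genes were higher and 18.9% lower.

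All 10 genes are protein-coding in GENCODE vM21 for GRCm38. Nos2 lies at chr11:78920787-78960254, Lcn2 at chr2:32384633-32388252, Il33 at chr19:29925114-29960718, Saa3 at chr7:46711998-46715700 and C3 at chr17:57203970-57228136. Il6 lies at chr5:30013114-30019981, Nfkbiz at chr16:55811375-55838899, Nfkbia at chr12:55489410-55492647, Vcam1 at chr3:116109949-116129688 and Ptgs2 at chr1:150100031-150108227. Vcam1 shares its locus with Gm43109 on the other strand and C3 holds the microRNA gene Mir6978, and reads of such pairs may be counted on either, since how strand was treated in counting is not given in the sources used here. Saa3 has close paralogs in Saa1 and Saa2, which are not analysed here, so its counts are uncertain to that extent.

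The RefSeq promoter set on GRCm38.p6 has entries for 7 of the 10 genes, Nos2, Nfkbiz and Vcam1 being the others. The 250 bases before each transcription start were searched on both strands for the kB consensus, to which NF-kB dimers bind, and for the palindromic glucocorticoid response element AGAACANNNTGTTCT. The promoters of Il6, of Nfkbia and of Il33, the chosen gene with a promoter at its gene start, are shown 5′ to 3′ on the strand of the gene, with the kB match in capitals and Il33 without a match.

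Il6, chr5:30012864-30013113, plus strand: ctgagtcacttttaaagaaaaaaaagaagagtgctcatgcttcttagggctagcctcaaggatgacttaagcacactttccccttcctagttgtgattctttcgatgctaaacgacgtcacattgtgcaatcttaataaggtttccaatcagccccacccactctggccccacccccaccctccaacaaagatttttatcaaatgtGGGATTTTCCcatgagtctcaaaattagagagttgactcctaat
Nfkbia, chr12:55492648-55492897, minus strand: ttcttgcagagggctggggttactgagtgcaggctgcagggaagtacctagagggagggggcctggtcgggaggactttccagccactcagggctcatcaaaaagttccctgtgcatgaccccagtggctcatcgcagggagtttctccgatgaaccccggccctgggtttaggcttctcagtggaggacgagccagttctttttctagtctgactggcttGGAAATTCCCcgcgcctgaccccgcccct
Il33, chr19:29924863-29925112, plus strand: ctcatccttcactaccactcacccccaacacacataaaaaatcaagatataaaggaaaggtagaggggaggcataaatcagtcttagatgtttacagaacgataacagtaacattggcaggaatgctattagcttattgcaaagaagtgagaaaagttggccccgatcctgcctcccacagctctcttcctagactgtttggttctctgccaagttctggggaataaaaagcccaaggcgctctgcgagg

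The Il6 match stands at -44 to -35 from the start site, and the Nfkbia match, which reads as the consensus on the reverse strand, at -29 to -20. An exact match was found in 2 of the 7 genes with a promoter and in 7.25% of all 32851 promoters. With 1 mismatch allowed, C3, Il6, Lcn2, Nfkbia and Ptgs2 had a match, against 56.6% of all promoters. The glucocorticoid response element was in none of the 7 and in 0.00913% of all promoters, and with 1 mismatch allowed in none of the 7 and in 0.14%. Il6 and Nfkbia, which share the exact kB match, stood far apart in level with EPC-EVs.

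Among the secreted and enzymatic effectors, Nos2, the inducible nitric oxide synthase, was counted 2594 and 1152 times in the control libraries, 2581 and 2620 times in the dexamethasone libraries and 18 and 30 times in the EPC-EVs libraries. These are 423 and 229 CPM, 376 and 386 CPM, and 1.43 and 2.35 CPM. The dexamethasone libraries lay between the control libraries, and both EPC-EVs libraries lay far below the other 4.

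Lcn2 encodes lipocalin 2, an iron-siderophore-binding protein of the acute phase that bone cells also secrete. Its level was 1203 and 1213 CPM in control, 799 and 1002 CPM with dexamethasone and 4.36 and 9.03 CPM with EPC-EVs. The groups did not overlap, and the EPC-EVs libraries held 55 and 115 counts where the others held 5490 to 7387.

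Il33, an alarmin cytokine of the interleukin 1 family that is released from nuclei of damaged cells, was at 63.0 and 64.7 CPM in control, 42.9 and 51.2 CPM with dexamethasone and 0.317 and 0.235 CPM with EPC-EVs. The EPC-EVs values rest on 4 and 3 counts against 295 to 387 counts in the other libraries. The groups did not overlap, and the EPC-EVs values were at the level that 3 counts give.

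Il6, the cytokine interleukin 6, was at 18.7 and 11.7 CPM in control, 15.9 and 15.6 CPM with dexamethasone and 0.792 and 0 CPM with EPC-EVs. The EPC-EVs libraries held 10 and 0 counts, and 0 counts allow up to 0.235 CPM at that depth. Control and dexamethasone overlapped, and EPC-EVs lay below both.

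Saa3, the serum amyloid A made outside the liver, was at 93.2 and 63.7 CPM in control, 69.9 and 71.7 CPM with dexamethasone and 1.82 and 6.04 CPM with EPC-EVs. The dexamethasone libraries again lay between the control libraries. C3, the central component of complement, was at 1163 and 1144 CPM in control, 946 and 1126 CPM with dexamethasone and 110 and 228 CPM with EPC-EVs. For both genes the EPC-EVs libraries lay below all others and differed from each other by more than the libraries of the other groups did in proportion.

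Ptgs2, the inducible cyclooxygenase that opens prostaglandin synthesis, was at 194 and 181 CPM in control, 126 and 106 CPM with dexamethasone and 132 and 90.7 CPM with EPC-EVs. Here the control libraries stood above the rest, and the EPC-EVs libraries lay on either side of the dexamethasone libraries. Vcam1, the adhesion molecule that binds leukocyte integrins, was at 430 and 592 CPM in control, 303 and 352 CPM with dexamethasone and 152 and 113 CPM with EPC-EVs, with no overlap between the 3 groups.

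Of the regulators, Nfkbiz encodes a nuclear IkB protein that assists NF-kB at secondary response genes such as Lcn2 and Il6. Its level was 324 and 401 CPM in control, 200 and 269 CPM with dexamethasone and 145 and 158 CPM with EPC-EVs, again with no overlap. Nfkbia encodes IkB alpha, the inhibitor that NF-kB itself induces, and was at 53.8 and 53.3 CPM in control, 59.1 and 49.9 CPM with dexamethasone and 49.0 and 63.2 CPM with EPC-EVs. Its 3 groups overlapped.

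**Figure D1:**
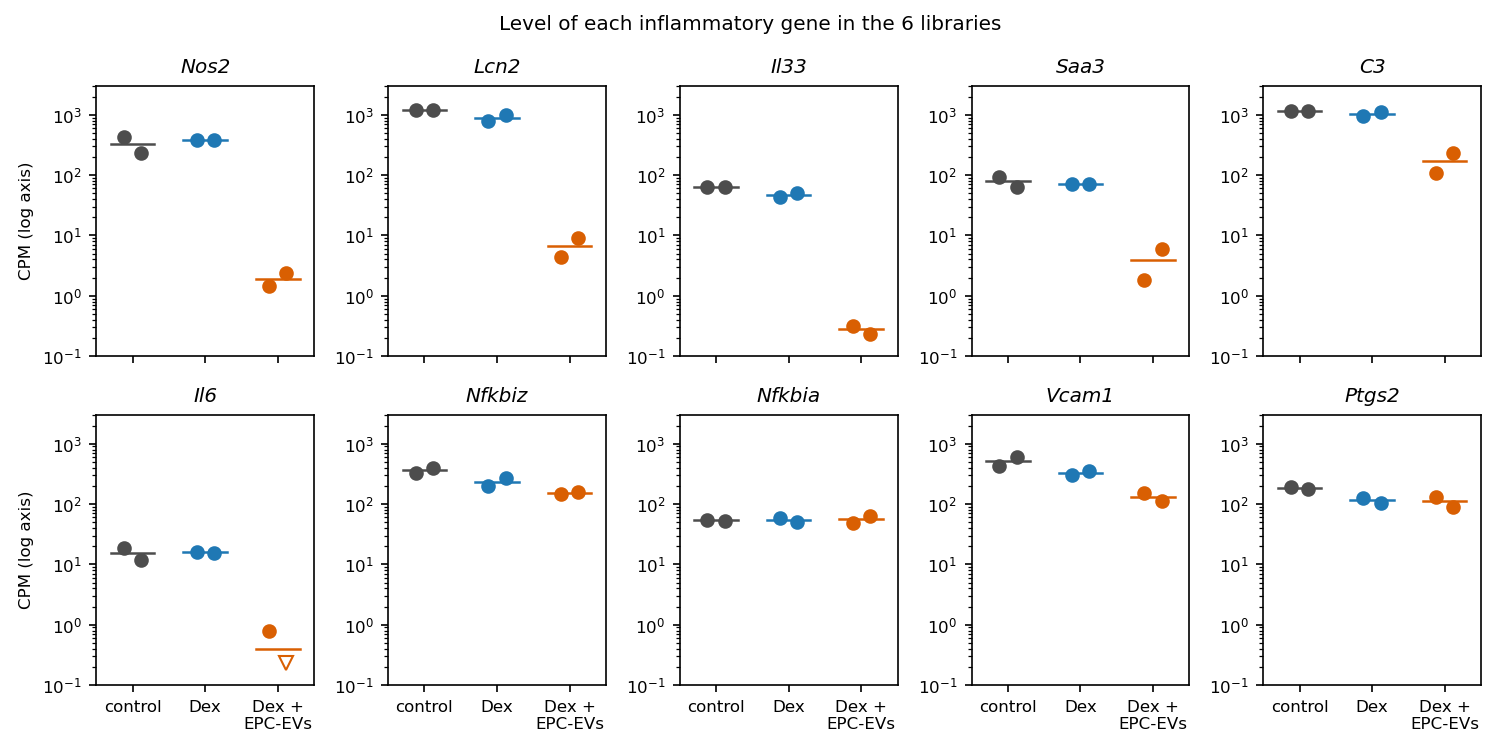
Level of each of the 10 genes in the 6 libraries, in CPM on a log axis shared by all panels, by group; each point is a library, the bar is the mean of the 2 libraries, and the open triangle marks Il6 at 0 counts, drawn at the level of 3 counts. The EPC-EVs points of Nos2, Lcn2, Il33, Saa3, C3 and Il6 lie below the other 4, while those of Nfkbia, at 49.0 and 63.2 CPM, lie just below and just above them.

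Levels of different genes were compared per length, in FPKM, the count scaled by gene length and library total. In control the mean FPKM fell in the order Lcn2 (455), C3 (222), Nos2 (73.3), Nfkbiz (71.4), Vcam1 (56.9), Ptgs2 (40.4), Nfkbia (32.9), Saa3 (29.8), Il33 (21.9) and Il6 (6.23). Neighbours whose libraries overlapped were Nos2 and Nfkbiz, Nfkbiz and Vcam1, and Nfkbia and Saa3. With dexamethasone the order was Lcn2 (356), C3 (209), Nos2 (89.6), Nfkbiz (48.5), Vcam1 (38.3), Nfkbia (35.2), Saa3 (28.2), Ptgs2 (26.3), Il33 (16.9) and Il6 (6.73), with overlap of Vcam1 with Nfkbia and of Saa3 with Ptgs2.

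With EPC-EVs the mean FPKM fell in another order, Nfkbia (33.9), C3 (32.0), Nfkbiz (29.4), Ptgs2 (23.7), Vcam1 (14.6), Lcn2 (2.48), Saa3 (1.46), Nos2 (0.416), Il6 (0.160) and Il33 (0.0933). Nfkbia, C3 and Nfkbiz overlapped as neighbours, as did Lcn2 with Saa3, Nos2 with Il6, and Il6 with Il33. Lcn2, first per length in the other groups, was thus sixth, and the inhibitor gene Nfkbia came first without a change in its own level beyond the spread of its libraries.

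Dexamethasone was compared with control to ask what the steroid by itself did to these genes. Their log2 fold changes lay between -0.70 for Ptgs2 and 0.22 for Nos2, with 7 of 10 below 0 and a median of -0.30 against 0.01 over all 12879 genes tested. None of the 10 was called, that is, none reached an adjusted p under 0.05 when edgeR's quasi-likelihood p-values were corrected over all genes by the procedure of Benjamini and Hochberg, and 7 genes were called in all (0.0544%), with 1409 at an unadjusted p under 0.05. This contrast shares the dexamethasone libraries with the one by which Nos2, Lcn2 and Il33 were chosen. The libraries of a group are described as biological replicates without saying whether they came from separate experiments, so p-values measure the spread between these libraries. In RNA of whole cultures, fewer cells making a transcript and less of it per cell cannot be told apart.

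The lowest values belonged to Ptgs2 (log2 fold change -0.70, SE 0.17, edgeR adjusted p = 0.279), Vcam1 (-0.65, SE 0.18, adjusted p = 0.291) and Nfkbiz (-0.63, SE 0.18, adjusted p = 0.305). Those 3 genes passed in DESeq2 (adjusted p = 0.0274, 0.0274 and 0.0476) and in edgeR without a filter on low counts (0.0271, 0.0125 and 0.0246). Il33 and Lcn2 were at -0.45 (SE 0.22, edgeR adjusted p = 0.486) and -0.43 (SE 0.15, adjusted p = 0.361). Saa3 and C3 were both at -0.16 (SE 0.22 and 0.14), and Il6 and Nfkbia at 0.04 and 0.02 (SE 0.39 and 0.22), with edgeR adjusted p between 0.715 and 0.989. The direction of these small values turned for Saa3 without control replicate 1 (0.15), for Il6 without control replicate 2 (-0.24) and for Nfkbia without dexamethasone replicate 1 (-0.11).

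Nos2 stood at 0.22 (SE 0.23, edgeR adjusted p = 0.768), and its direction also rested on the control libraries. Without control replicate 1, Nos2 was higher with dexamethasone by 0.73, and Lcn2 was at -0.43, Nfkbiz at -0.77, Vcam1 at -0.85 and Ptgs2 at -0.64. Without control replicate 2, Nos2 was at -0.14 and Ptgs2 at -0.73. A lone control library was taken in these fits to vary like the dexamethasone libraries.

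Known steroid-responsive genes give the setting of this contrast. Tsc22d3, Fkbp5 and Dusp1, textbook targets of the glucocorticoid receptor named after their values were seen, were at -0.09 (SE 0.30), 0.27 (SE 0.32) and -0.44 (SE 0.19) in dexamethasone against control (edgeR adjusted p = 0.945, 0.789 and 0.428). In dexamethasone + EPC-EVs against dexamethasone they rose by 2.40 (SE 0.39), 0.73 (SE 0.22) and 2.21 (SE 0.19) on the log2 scale (edgeR adjusted p = 0.00275, 0.0225 and 8.98e-06). They are the 3 that were called of 5 tested in a list of 6 glucocorticoid receptor and target genes. The other 2 tested did not pass, where 20.9% of all genes rose and 18.9% fell. Against control 3 of the list rose and 1 fell, where 19.1% of all genes rose and 17.2% fell. The rise of Tsc22d3 was 1.70 without EPC-EVs replicate 2, and that of Fkbp5 was called in 7 of 10 alternatives, being lost without dexamethasone replicate 2 or EPC-EVs replicate 1 and with all 6 libraries in 1 fit (adjusted p up to 0.153).

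Dexamethasone + EPC-EVs was next compared with control, which shares the EPC-EVs libraries with the choosing contrast, so Nos2, Lcn2 and Il33 are given there without a test. Their log2 fold changes were -7.47 (SE 0.42), -7.54 (SE 0.36) and -7.83 (SE 0.40), which are levels 177-fold, 186-fold and 228-fold lower. Of the other 7 genes, Saa3, C3, Vcam1, Nfkbiz and Ptgs2 fell in the edgeR test and Nfkbia did not pass, where 17.2% of the 13511 genes tested were called lower and 19.1% higher. These 7 were named with earlier results of these data known, and the EPC-EVs libraries are those of the choosing contrast. Their calls and p-values here are thus a description and no separate support. Il6, which passed the filter on low counts only through its level in control, is given without a test, at a log2 fold change of -5.27 (SE 0.99).

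Saa3 (log2 fold change -4.36, SE 0.51, edgeR adjusted p = 0.000663) and C3 (-2.82, SE 0.32, adjusted p = 0.000617) had the largest falls among those tested. Their size, and that of Il6, rests on single libraries. Without EPC-EVs replicate 1 the values were -9.95 for Il6, where the remaining library is at 0, and -3.73 for Saa3, and without EPC-EVs replicate 2 they were -4.27 for Il6, -5.45 for Saa3, -3.42 for C3 and -8.14 for Lcn2, with Saa3 and C3 still called.

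Vcam1 fell by 2.00 on the log2 scale (SE 0.23, edgeR adjusted p = 0.000691). Nfkbiz (log2 fold change -1.31, SE 0.19, edgeR adjusted p = 0.00152) and Ptgs2 (-0.80, SE 0.22, adjusted p = 0.0232) also fell. The fall of Ptgs2 was lost without EPC-EVs replicate 2 (-0.54, adjusted p = 0.246). Nfkbia, at 0.02 (SE 0.23, edgeR adjusted p = 0.959), did not pass.

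Dexamethasone + EPC-EVs against dexamethasone, the contrast behind the choice of these genes, asks what the vesicles added to the steroid. Nos2 was 206-fold lower (log2 fold change -7.69, SE 0.22), Il33 168-fold lower (-7.39, SE 0.38) and Lcn2 139-fold lower (-7.11, SE 0.31). From the pooled counts, with exact intervals of 95% that cover counting error alone, dexamethasone exceeded EPC-EVs 201 times for Nos2 (152 to 273), 171 times for Il33 (82.3 to 426, on 643 against 7 counts) and 134 times for Lcn2 (115 to 157). The libraries of a group differed by more than counting error. The chi-square per degree of freedom over genes was 7.17 with dexamethasone and 20.1 with EPC-EVs, so these intervals are too narrow for the spread between libraries.

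Il6 stood at -5.32 (SE 0.79), Saa3 at -4.21 (SE 0.41) and C3 at -2.66 (SE 0.36), and Vcam1 at -1.35 (SE 0.16) and Nfkbiz at -0.68 (SE 0.16) showed smaller differences. Ptgs2 at -0.11 (SE 0.19) and Nfkbia at 0.00 (SE 0.20) differed by less than their standard error. The pooled Il6 ratio was 39.9 (21.3 to 84.4 for counting error alone, on 215 against 10 counts, the latter all in EPC-EVs replicate 1).

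In this contrast 8 of the 10 genes were below the call threshold and lower, against 18.9% of the 13556 genes tested called lower and 20.9% called higher, and nothing is read from that count because the contrast chose the genes. All 10 passed the filter on low counts, Il33 and Il6 through their level in the dexamethasone libraries. Without EPC-EVs replicate 1, Il6 was at -10.13 and Saa3 at -3.58, and without EPC-EVs replicate 2, Il6 was at -4.31, Saa3 at -5.29, C3 at -3.26 and Lcn2 at -7.71, while Ptgs2 turned to 0.16.

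**Figure D2:**
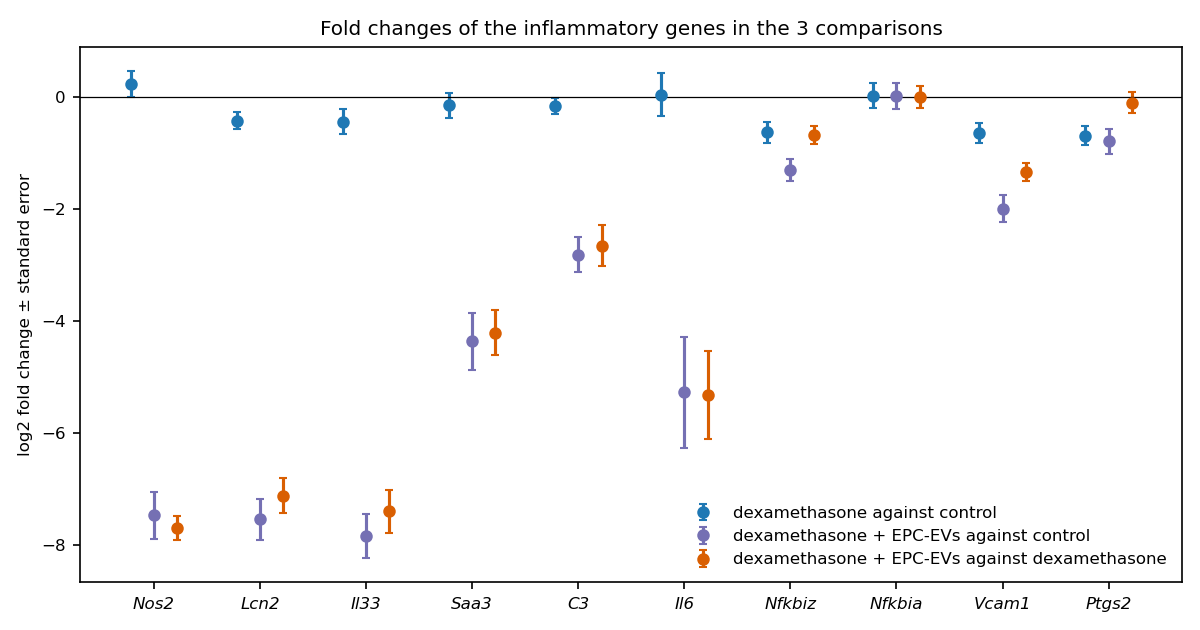
Log2 fold change of each of the 10 genes in the 3 comparisons, with bars of 1 standard error from edgeR on 4 libraries each; below 0 means lower in the first-named group. Dexamethasone against control spans -0.70 to 0.22, both comparisons with EPC-EVs reach below -7 for Nos2, Lcn2 and Il33, and Nfkbia lies near 0 in all 3.

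**Figure D3:**
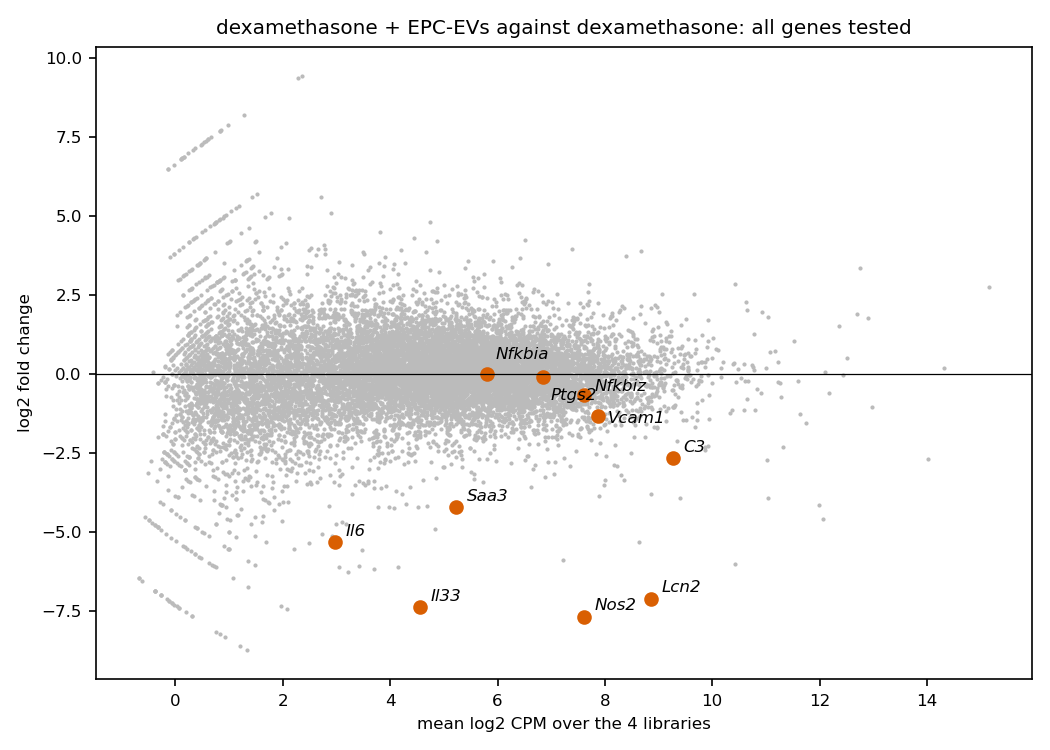
Log2 fold change in dexamethasone + EPC-EVs against dexamethasone over the mean log2 CPM of the 4 libraries, with all 13556 genes tested in grey and the 10 genes in orange with their names. Nos2 (-7.69), Il33 (-7.39) and Lcn2 (-7.11), chosen by this contrast, lie at the lower edge, and Nfkbia (0.00) and Ptgs2 (-0.11) lie in the body of the cloud.

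The genes of the NF-kB pathway and of the partners of the 10 genes were taken from lists with 117 names, 100 of which are in the table and 88 of which were tested in each comparison. In dexamethasone against control none was called. In dexamethasone + EPC-EVs against dexamethasone 15 rose, 26 fell and 47 did not pass, where 20.9% of all genes rose and 18.9% fell, with a median log2 fold change of -0.15 against 0.01 over all genes. In dexamethasone + EPC-EVs against control 12 rose, 25 fell and 51 did not pass, where 19.1% of all genes rose and 17.2% fell. These falls include Steap4 and Mmp3 in both comparisons and Ly96 against control, which passed the filter on low counts only through the group in which they were higher.

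Of the 5 NF-kB subunits 3 rose, 1 fell and 1 did not pass with EPC-EVs against dexamethasone, where 20.9% of all genes rose and 18.9% fell. Against control 1 rose, Nfkb2 (1.47, SE 0.22, edgeR adjusted p = 0.00163), and the other 4 did not pass, with Relb at 0.90, Nfkb1 at 0.21 and Rel at -0.55 (adjusted p = 0.0621, 0.472 and 0.213), beside 19.1% of all genes higher and 17.2% lower. In dexamethasone + EPC-EVs against dexamethasone, Nfkb2 and Relb, the pair of the non-canonical branch, rose by 1.02 (SE 0.16, edgeR adjusted p = 0.000468) and 1.11 (SE 0.28, adjusted p = 0.00826) on the log2 scale. Nfkb2 was at 65.5 and 54.2 CPM with dexamethasone and 120 and 132 CPM with EPC-EVs, and Relb at 11.9 and 10.2 CPM and at 23.8 and 25.4 CPM, without overlap. Nfkb1, which encodes p105 and p50, rose by 0.42 (SE 0.13, adjusted p = 0.0270) and Rel, the c-Rel subunit, fell by 0.78 (SE 0.27, adjusted p = 0.0371).

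The last 2 calls held in fewer settings. The rise of Nfkb1 was called in 6 of 10 alternatives, and was lost without either dexamethasone library, without EPC-EVs replicate 2 and with all 6 libraries in 1 fit (adjusted p up to 0.140), and the fall of Rel in 3 of 10, being lost without any single library, without the filter, in DESeq2 and with all 6 libraries in 1 fit (up to 0.176). The rise of Relb was lost without dexamethasone replicate 2 (adjusted p = 0.0574). Rela, the p65 subunit, was at 0.00 (SE 0.15, edgeR adjusted p = 0.983), with 98.9 and 88.5 CPM against 90.7 and 103 CPM.

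Of the 9 IkB proteins and feedback inhibitors tested besides Nfkbiz and Nfkbia, 4 fell in dexamethasone + EPC-EVs against dexamethasone and 5 did not pass, beside 18.9% of all genes that fell and 20.9% that rose. Bcl3, a nuclear IkB protein, fell by 1.79 on the log2 scale (SE 0.30, edgeR adjusted p = 0.000648). The others, named after their values were seen, were the ubiquitin-editing inhibitors Tnip1 (-1.15, SE 0.18), Cyld (-0.85, SE 0.16) and Tnfaip3 (-0.82, SE 0.19). The call of Tnfaip3 was lost without dexamethasone replicate 2 (adjusted p = 0.0574).

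Among 20 adaptors and kinases 3 rose and 5 fell in the same comparison, where 20.9% of all genes rose and 18.9% fell. Tab3, which links ubiquitin chains to the kinase TAK1, fell by 1.37 (SE 0.20, edgeR adjusted p = 0.000240), and Tradd, the adaptor of TNF receptor 1, rose by 1.27 (SE 0.41, adjusted p = 0.0274), a call held in 6 of 10 alternatives and lost without dexamethasone replicate 1 or either EPC-EVs library and with all 6 libraries in 1 fit (adjusted p up to 0.114). Of 10 receptors 3 rose and 3 fell, beside the same shares of all genes. Cd14, the co-receptor for bacterial lipopolysaccharide, rose by 2.44 (SE 0.39, adjusted p = 0.000537), from 3.06 and 7.21 CPM to 24.2 and 33.4 CPM, and by 3.19 without dexamethasone replicate 2. Tlr3, the receptor for double-stranded RNA, fell by 1.55 (SE 0.49, adjusted p = 0.0248), a call held in 7 of 10 alternatives and lost without dexamethasone replicate 1 or EPC-EVs replicate 1 and with all 6 libraries in 1 fit (adjusted p up to 0.180).

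Tnf and Il1b, the ligands that classically start the response, are not analysed here, and the 1 ligand tested did not pass. Against control, Ltbr, the lymphotoxin beta receptor of the non-canonical branch, rose by 2.42 with EPC-EVs (SE 0.27, edgeR adjusted p = 0.000583). Ly96, the partner of TLR4, passed the filter there only through its level in control and is given without a test, at -2.51 (SE 0.72), with -1.79 and -3.95 without EPC-EVs replicates 1 and 2.

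Other inflammatory targets moved both ways with EPC-EVs against dexamethasone, 3 rising and 6 falling of 18, where 20.9% of all genes rose and 18.9% fell. Among the 6 are Steap4 and Mmp3, which passed the filter only through the dexamethasone libraries and support nothing in that count. Steap4, a metalloreductase of inflamed tissue, is thus given without a test, at a log2 fold change of -4.90 (SE 0.39), with 51.5 and 58.7 CPM against 0.95 and 2.83 CPM, and with -4.31 and -5.86 without EPC-EVs replicates 1 and 2. Junb, an immediate early transcription factor of the AP-1 family, rose by 2.59 (SE 0.16, edgeR adjusted p = 8.35e-07), from 29.6 and 26.8 CPM to 175 CPM in both EPC-EVs libraries. Cebpb, a factor of the acute phase named after its value was seen, rose by 2.03 (SE 0.25, adjusted p = 7.84e-05).

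**Figure D4:**
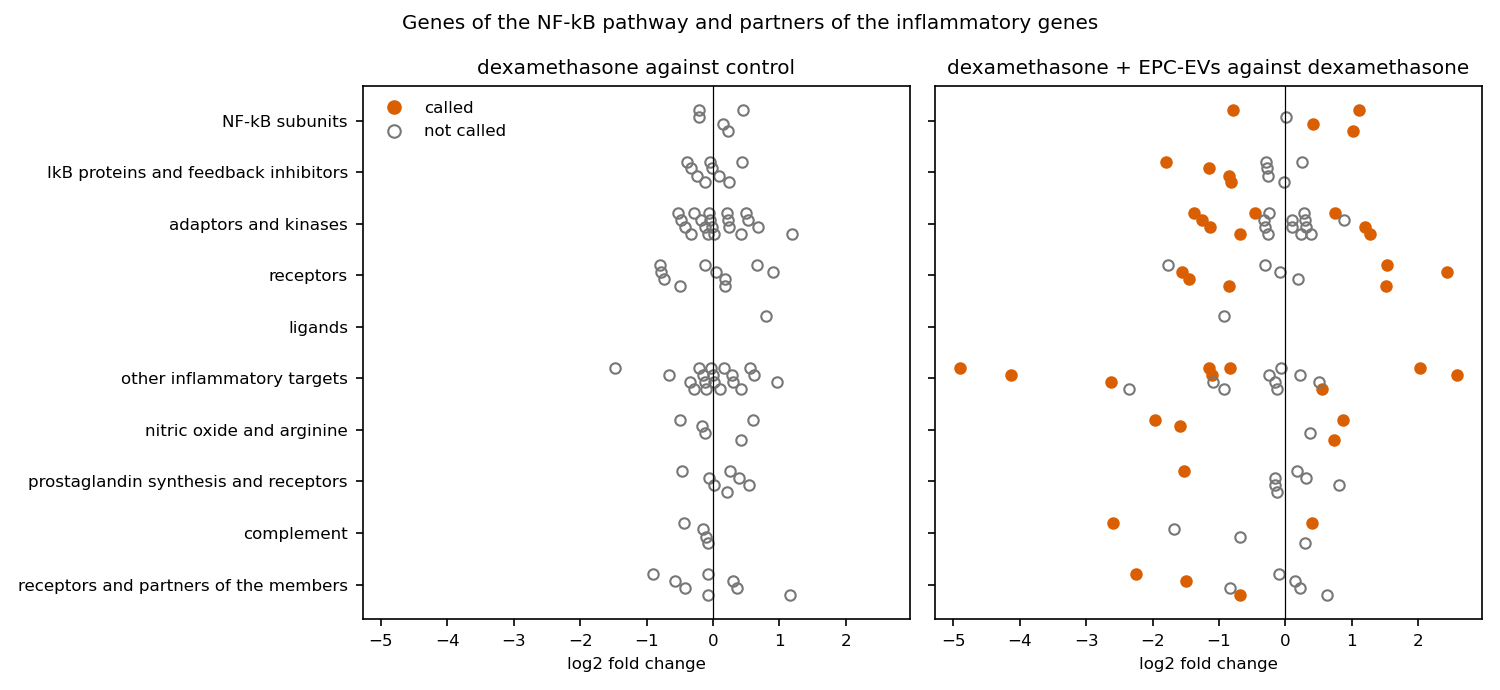
Log2 fold change of each tested gene of the pathway and partner lists in dexamethasone against control (left) and in dexamethasone + EPC-EVs against dexamethasone (right), 88 genes in each; filled points are called at an adjusted p under 0.05. No point is filled on the left, and 41 are filled on the right, on both sides of 0, with Steap4, which passed the filter only through the dexamethasone libraries, the lowest at -4.90.

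Genes that work beside Nos2 in nitric oxide and arginine metabolism split. Slc7a2, the inducible arginine transporter, fell by 1.59 (SE 0.14, edgeR adjusted p = 1.13e-05) with EPC-EVs against dexamethasone, from 164 and 175 CPM to 60.0 and 56.3 CPM. Ass1, which with Asl remakes arginine from citrulline, fell by 1.96 (SE 0.29, adjusted p = 0.000359), and by 2.60 without EPC-EVs replicate 1. Asl rose by 0.87 (SE 0.27, adjusted p = 0.0233), a call held in 7 of 10 alternatives and lost without dexamethasone replicate 1 or EPC-EVs replicate 2 and with all 6 libraries in 1 fit (adjusted p up to 0.115). Gch1, the first enzyme of the cofactor tetrahydrobiopterin that Nos2 needs, lay at 0 to 1.59 CPM and was not tested.

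Beside Ptgs2, of 7 prostaglandin genes tested 1 fell with EPC-EVs against dexamethasone and 6 did not pass, beside 18.9% of all genes that fell. Pla2g4a, the phospholipase that frees arachidonic acid for Ptgs2, fell by 1.53 (SE 0.17, edgeR adjusted p = 5.04e-05), from 106 and 119 CPM to 44.6 and 36.2 CPM. Ptgs1, the constitutive cyclooxygenase, and Ptges, the inducible prostaglandin E synthase, were at 0.18 (SE 0.15, adjusted p = 0.375) and -0.13 (SE 0.14, adjusted p = 0.495).

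Of the complement genes around C3, C1ra, a protease of the classical pathway, rose by 0.40 on the log2 scale with EPC-EVs against dexamethasone (SE 0.13, edgeR adjusted p = 0.0346), a call held in 6 of 10 alternatives and lost without either dexamethasone library, without EPC-EVs replicate 2 and with all 6 libraries in 1 fit (adjusted p up to 0.204).

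Receptors of the secreted members were also measured, and 3 of 8 receptors and partners fell with EPC-EVs against dexamethasone while none rose, where 18.9% of all genes fell and 20.9% rose. Against control 3 fell and 1 rose, where 17.2% of all genes fell and 19.1% rose. Il1rl1, which encodes the receptor of interleukin 33, was at 432 and 348 CPM in control, 205 and 216 CPM with dexamethasone and 83.5 and 71.0 CPM with EPC-EVs. It fell by 1.49 (SE 0.14, edgeR adjusted p = 1.65e-05) against dexamethasone and was at -2.38 (SE 0.20, adjusted p = 0.000250) against control, in the same libraries in which Il33 was at 4 and 3 counts. In dexamethasone against control Il1rl1 was at -0.90 (SE 0.16, adjusted p = 0.101), without overlap between the groups, and it was called there in 5 of 10 alternatives, DESeq2 and the fits without either control library among them.

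Receptors of the interleukin 6 family were measured too. Osmr, the oncostatin M receptor, fell by 2.24 (SE 0.15, edgeR adjusted p = 1.81e-06), from 483 and 460 CPM to 88.3 and 117 CPM, and Il6st, the shared signalling chain gp130, fell by 0.69 (SE 0.12, adjusted p = 0.000913). Il6ra, the receptor of interleukin 6 itself, was at -0.83 (SE 0.37, adjusted p = 0.0980), and was called lower without dexamethasone replicate 1 or without EPC-EVs replicate 2 (-1.21 and -1.14). Slc22a17, a receptor of lipocalin 2, was at 0.63 (SE 0.34, adjusted p = 0.164) against dexamethasone. It rose by 1.79 against control (SE 0.46, edgeR adjusted p = 0.0172), a call held in 8 of 10 alternatives and lost without either EPC-EVs library (adjusted p up to 0.101). Itgb1, a chain of the integrin that binds VCAM1, was at 0.22 against dexamethasone (SE 0.12, adjusted p = 0.162) and was called higher without EPC-EVs replicate 1 (0.31).

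The pattern most like that of Nos2, Lcn2 and Il33 over the 6 libraries was sought among the 9213 other genes that averaged 10 CPM or more, by the Euclidean distance between centred log2 CPM values. For Lcn2 the nearest were mt-Nd2 (distance 1.11), the pseudogene Gm28439 (1.38) and mt-Nd6 (1.95). For Il33 they were Gm28439 (0.957), mt-Nd2 (1.27) and mt-Nd6 (1.50). For Nos2 they were mt-Nd2 (1.88), Gm28439 (1.94) and Klra2 (2.25), which was at 1 and 5 counts in the EPC-EVs libraries. The mitochondrially encoded subunit mt-Nd2 was at 5285 and 6248 CPM in control and 2778 and 2516 CPM with dexamethasone. With EPC-EVs mt-Nd2 was at 25.3 and 59.4 CPM. The search looked for this pattern, so the fall that these genes share follows from how they were found and gives no separate support. The share of all mitochondrially encoded genes was 0.465% and 0.727% in the same 2 EPC-EVs libraries, and a link with the inflammatory genes was not tested.

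With mitochondrially encoded genes left out of totals and tests, the log2 fold changes of Nos2, Lcn2 and Il33 against dexamethasone were -7.69, -7.12 and -7.40. Of 8 leukocyte and macrophage markers 6 are in the table, and their summed level was 12.2 and 11.7 CPM in control, 18.6 and 19.6 CPM with dexamethasone and 19.3 and 54.2 CPM with EPC-EVs, with Adgre1 at 0 in 5 of the 6 libraries. Csf1r is a macrophage receptor named after its values were seen. It was at 1.95 and 0 CPM in control, 2.91 and 1.18 CPM with dexamethasone and 4.44 and 37.0 CPM with EPC-EVs. Csf1r passed the filter against control only through the EPC-EVs libraries and is given without a test. Its log2 fold change there was 4.25 (SE 1.22), a size that moved with the omission of any single library. The other 2 such markers tested did not pass, where 19.1% of all genes were higher and 17.2% lower. Of 8 endothelial markers 7 are in the table, and Cdh5 was at 0 in 5 libraries and Tek in 5. The dexamethasone libraries and EPC-EVs replicate 1 were thus at a like leukocyte sum. The higher sum of EPC-EVs replicate 2 was mostly the single gene Csf1r, at 37.0 of 54.2 CPM, with Adgre1, Laptm5 and Cd52 at 0 there. The endothelial sum, nearly all Cd34, was 416 and 379 CPM in control, 361 and 373 CPM with dexamethasone and 290 and 243 CPM with EPC-EVs, and the part of either sum in the results was not tested.

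The transcript table, which covers chromosome 1, holds Ptgs2 and Il1rl1. Summed over 9 annotated and assembled transcripts, Ptgs2 was at 37.8 and 26.1 FPKM in control, 20.7 and 19.9 FPKM with dexamethasone and 17.3 and 13.7 FPKM with EPC-EVs. The 2 annotated transcripts alone gave 8.17 and 2.05 FPKM, 7.06 and 4.51 FPKM, and 2.12 and 1.64 FPKM, so most of the estimate stood on assembled forms. Il1rl1, over 6 transcripts, was at 70.8 and 74.7 FPKM, 59.9 and 40.7 FPKM, and 19.2 and 18.4 FPKM. Its 3 annotated transcripts alone gave 15.1 and 65.6 FPKM, 48.5 and 11.96 FPKM, and 15.5 and 16.3 FPKM, with overlap between the groups. These estimates come from the same reads as the counts and are no separate replication.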

How the data were processed

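RNA-seq gene counts of 6 libraries, 2 per group, were analysed, with groups from the sample labels. The authors aligned paired reads with HISAT2 to GRCm38, counted them on genes with HTSeq 0.6.1 and deposited the counts without normalization, beside gene FPKM that equal the counts divided by gene length and library total, and transcript FPKM made with StringTie (chromosome 1 here). The submitters' processing notes also name DESeq2 1.26.0. Each pair of groups was fitted on its 4 libraries in edgeR 4.0.16 (R 4.3.3) with TMM, filterByExpr and the robust quasi-likelihood test, and Benjamini-Hochberg adjustment ran over every gene in the fit. A standard error is the log2 fold change divided by the root of the F statistic. FPKM was used for levels between genes. Gene identifiers were matched to GENCODE vM21 for 21646 of 21686 genes. The fitting code was tested on simulated data.

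The members and lists were chosen with earlier results of these data known. The text names all members, the NF-kB subunits, listed receptors and partner enzymes, the largest called rise and fall of each list at a mean of at least 5 CPM, and the 3 nearest patterns of Nos2, Lcn2 and Il33. A gene that this rule covers is not reported here. Members are given without p-values in the contrast that chose them, where their calls are counted as a description, and Nos2, Lcn2, Il33 and Il6 also in dexamethasone + EPC-EVs against control. Other named genes that passed the filter only through their higher group have none either. The alternatives were RLE size factors, leaving out mitochondrially encoded genes, no filter, DESeq2 1.42.0, all 6 libraries in 1 fit, a block for the replicate number, omission of each library, 1 motif mismatch and annotated transcripts alone. Where the texts of the study differ in cells, time or dose, the sample labels were followed.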

Additional observations from a re-analysis of the deposited data

How the results depend on the processing

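In dexamethasone against control, 7 genes were called, and 129 with DESeq2, 248 without the filter, 1 with mitochondrially encoded genes left out and 9 to 2200 when each library was left out in turn, the highest without control replicate 1. Of the 10 inflammatory genes 0 were called there, and 3 with DESeq2, 3 without the filter and 0 to 5 over the left-out libraries. Of the pathway and partner genes 0 were called, and 2 with DESeq2, 4 without the filter and 0 to 16 over the left-out libraries. In dexamethasone + EPC-EVs against dexamethasone, 5397 genes were called, and 3250 to 4813 over the left-out libraries, the lowest without dexamethasone replicate 2. In dexamethasone + EPC-EVs against control, 4916 genes were called, and 3375 to 6231 over the left-out libraries, and of Saa3, C3, Vcam1, Nfkbiz and Ptgs2 the call of Ptgs2 was lost, without EPC-EVs replicate 2. The causes were not tested. Under DESeq2, no filter and without control replicate 1, the median of all genes in that comparison shifted to 0.13, 0.17 and 0.15 on the log2 scale, and the falls named above are to be read against that. A kB match was found in 2 promoters, and in 5 with a mismatch allowed. Mean summed Ptgs2 transcripts were 31.9, 20.3 and 15.5 FPKM in control, dexamethasone and EPC-EVs, and 5.11, 5.79 and 1.88 FPKM over annotated transcripts alone.

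The replicate numbers of the labels are shared by the groups, but the deviations of same-numbered libraries correlated over genes at 0.14 (control and dexamethasone), 0.04 (control and EPC-EVs) and -0.00 (dexamethasone and EPC-EVs), so the libraries share a number and were not treated as pairs. With the replicate number as a block, 43 genes and 1 pathway or partner gene were called in dexamethasone against control, and 0 of the 10 inflammatory genes. The EPC-EVs levels of Il33 and Il6 rest on 10 counts or fewer per library.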
